A study of Mus musculus with 16 samples.

Results

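The nuclear tRNA-Thr genes supply the cytosolic ribosome with threonine, and their isodecoders were followed here across mouse fibroblasts and hearts. Members were all rows named tRNA-Thr with an AGT, CGT or TGT anticodon, without mitochondrial rows and without rows named tRX. The table of mouse embryonic fibroblasts (MEFs) held 13 such rows of 819, of which 12 passed the filter on low counts. The table of hearts held 14 of 821, of which 13 passed. An isodecoder is one of several tRNAs that share an anticodon but differ elsewhere, and the last number of a name only tells isodecoders apart. tRNA-Thr-AGT-1 and tRNA-Thr-AGT-3 stood in 1 joint row (AGT-1/3) in the MEF table and in separate rows in the heart table, and tRNA-Thr-TGT-3/2 was a joint row in both.

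Threonine has the codons ACU, ACC, ACA and ACG. The adenosine that opens the AGT anticodon is deaminated to inosine in mature eukaryotic tRNA, so that AGT tRNAs read ACU and ACC and can read ACA. TGT tRNAs read ACA and can wobble to ACG, and CGT tRNAs read ACG alone. All are charged by cytosolic threonyl-tRNA synthetases, and their genes are transcribed by RNA polymerase III.

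The study asked what follows when base editing corrects a disease mutation in the gene of mitochondrial tRNA-Ala. The first set held 4 MEF lines, named MEF_Ctrl_1, MEF_Cl_1, MEF_Cl_2 and MEF_Cl_3 in the titles, with 2 libraries each that the labels describe as cell passages of a line, so each named line is a single line. The second set held 8 hearts of the m.5024T mouse model, 1 per mouse, of which 4 mice had received AAV9-GFP and 4 AAV9-DdCBE. AAV9 is an adeno-associated virus used to carry genes into heart muscle, GFP serves as the fluorescent control, and DdCBE denotes a cytosine base editor for mitochondrial DNA. Titles also carry an X label: 5X for AAV9-GFP mice 5 and 6, 3X for AAV9-GFP mice 14 and 19, 10X for AAV9-DdCBE mice 17 and 18, 5X for mouse 25 and 2X for mouse 26. What Ctrl, Cl and X stand for is not explained in the sources used here, which also give neither age, sex, strain, dose nor the promoter of the vectors. All rows are tRNA, so the labelled cell type and tissue were not checked against mRNA markers.

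The total count per library was 1473330 to 4375975 for MEFs and 1540287 to 3037178 for hearts, of which 87770 to 236007 and 75977 to 111825 counts were nuclear tRNA-Thr. Levels are given in CPM, counts scaled to a common library size, after TMM scaling, which sets the bulk of rows equal between libraries. They are relative amounts in a bulk RNA sample, so fewer cells of a type and less RNA per cell cannot be told apart. Counts are of sequenced tRNA molecules and were not divided by length, and a ratio between isodecoders is a ratio of counts alone. Mitochondrial tRNA made up 2.14% to 3.74% of MEF counts, 37.4% to 43.3% of counts in AAV9-GFP hearts, and 59.9%, 44.5%, 39.2% and 38.9% in AAV9-DdCBE mice 17, 18, 25 and 26. Rows named tRX-Thr took 0 to 9 counts per library and were not tested.

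A few isodecoders carried most of the tRNA-Thr counts in every library. In the MEFs TGT-3/2 (median 14557 CPM over 8 libraries, range 12114 to 16016) and AGT-1/3 (median 12851, range 12170 to 15312) led, with overlapping ranges. CGT-1, AGT-4, CGT-2, AGT-2 and TGT-1 followed with medians from 6220 down to 3987 CPM, and each of these overlapped its neighbour in that order. CGT-3 (median 692 CPM), AGT-6 (404) and CGT-4 (373) formed a low tier with overlapping ranges. AGT-5, with 33.0 to 102 CPM, lay below all of these, and AGT-7, with 4.31 to 13.8 CPM, lay lower still.

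The hearts kept the same leaders, while the order of the rows below them differed from that in the MEFs. TGT-3/2 (median 14055 CPM, range 8504 to 15958) and AGT-1 (median 10096, range 6123 to 11652) were highest, followed by AGT-2 (6673), AGT-4 (3275), CGT-2 (2583), CGT-1 (2338) and TGT-1 (1732), each with a range that overlapped the next. CGT-3 (median 418 CPM), AGT-5 (347), AGT-3 (293), AGT-6 (80.4) and CGT-4 (16.3) made up the low tier. AGT-7 had 3.83 to 10.8 CPM from only 9 to 21 counts per heart. AGT-9 had 0 counts in all 16 libraries, where 3 counts would be 0.686 to 2.04 CPM of the unscaled library totals. Reads can be assigned to the wrong isodecoder where sequences are nearly identical, and the sources used here do not say how such reads were counted, so low rows such as AGT-3 are uncertain as single rows.

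**Figure D1:**
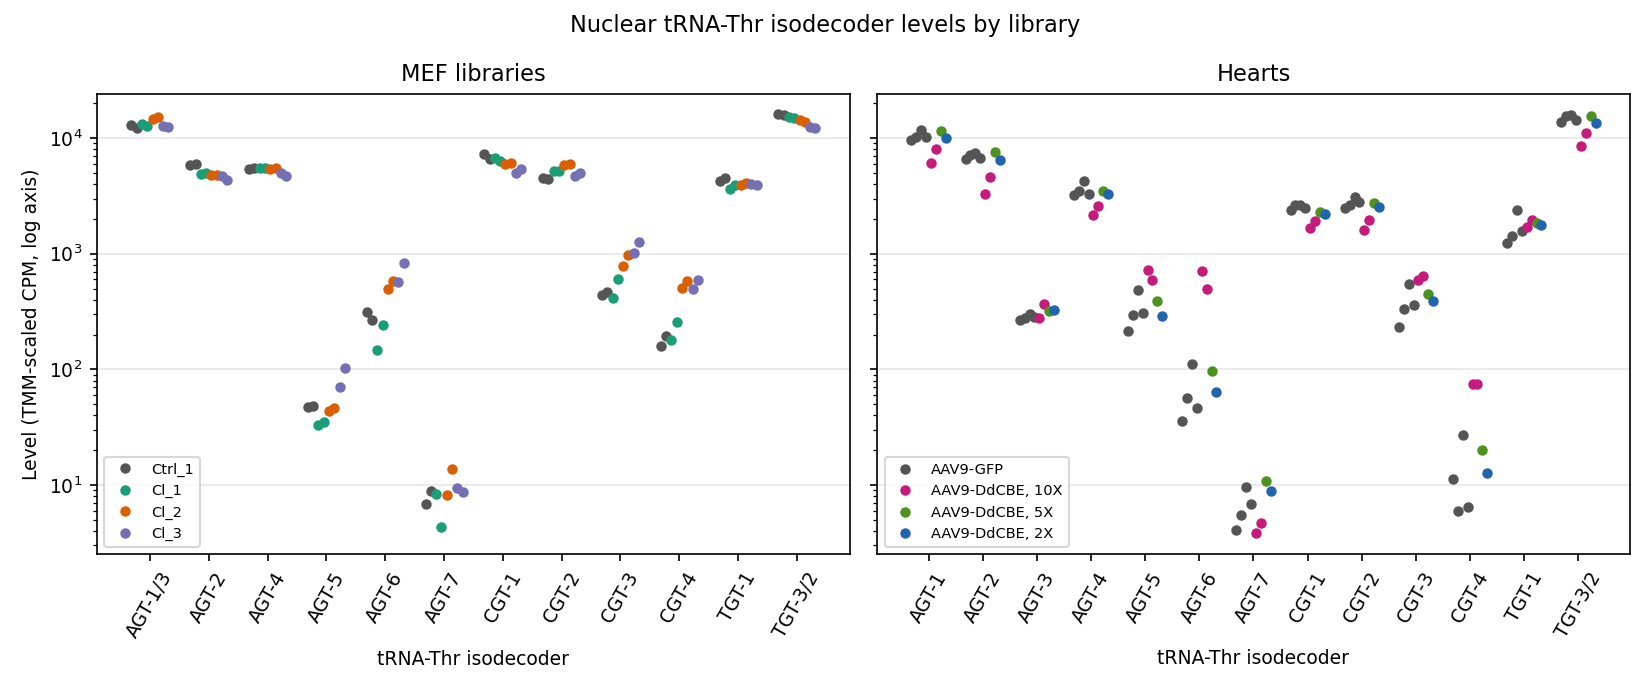
Level of each nuclear tRNA-Thr isodecoder that passed the filter (x axis) in TMM-scaled CPM on a log axis (y axis), 1 point per library, MEFs on the left and hearts on the right. TGT-3/2 and AGT-1 or AGT-1/3 lie at the top in both tables. AGT-7 lies at the bottom in the MEFs, and in the hearts its range overlaps that of CGT-4. The 2 hearts labelled 10X lie above the AAV9-GFP hearts for AGT-5, AGT-6, CGT-3 and CGT-4.

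The balance between the anticodons differed between the hearts and the MEFs. In the 8 hearts AGT took 49.4% ± 0.708 (SD) of tRNA-Thr counts, CGT 13.0% ± 0.720 and TGT 37.7% ± 0.404. In the 4 MEF lines, each taken as the mean of its 2 libraries, AGT took 44.0% ± 1.10, CGT 22.6% ± 0.934 and TGT 33.4% ± 1.98. The hearts minus the MEF lines gave -9.60 percentage points for CGT, the reader of ACG, 5.39 for AGT and 4.21 for TGT. No heart overlapped any MEF library for any of the 3 shares (exact two-sided permutation test over 495 assignments, p = 0.00202 for each, the smallest it can give here, and 0.00202 after Benjamini-Hochberg adjustment over the 3 anticodons). The family as a whole took 7.10% ± 0.814 of nuclear tRNA counts in the 8 hearts and 5.64% ± 0.239 in the 4 line means (exact permutation test, p = 0.00808). Tissue, table and preparation cannot be told apart in these comparisons.

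**Figure D2:**
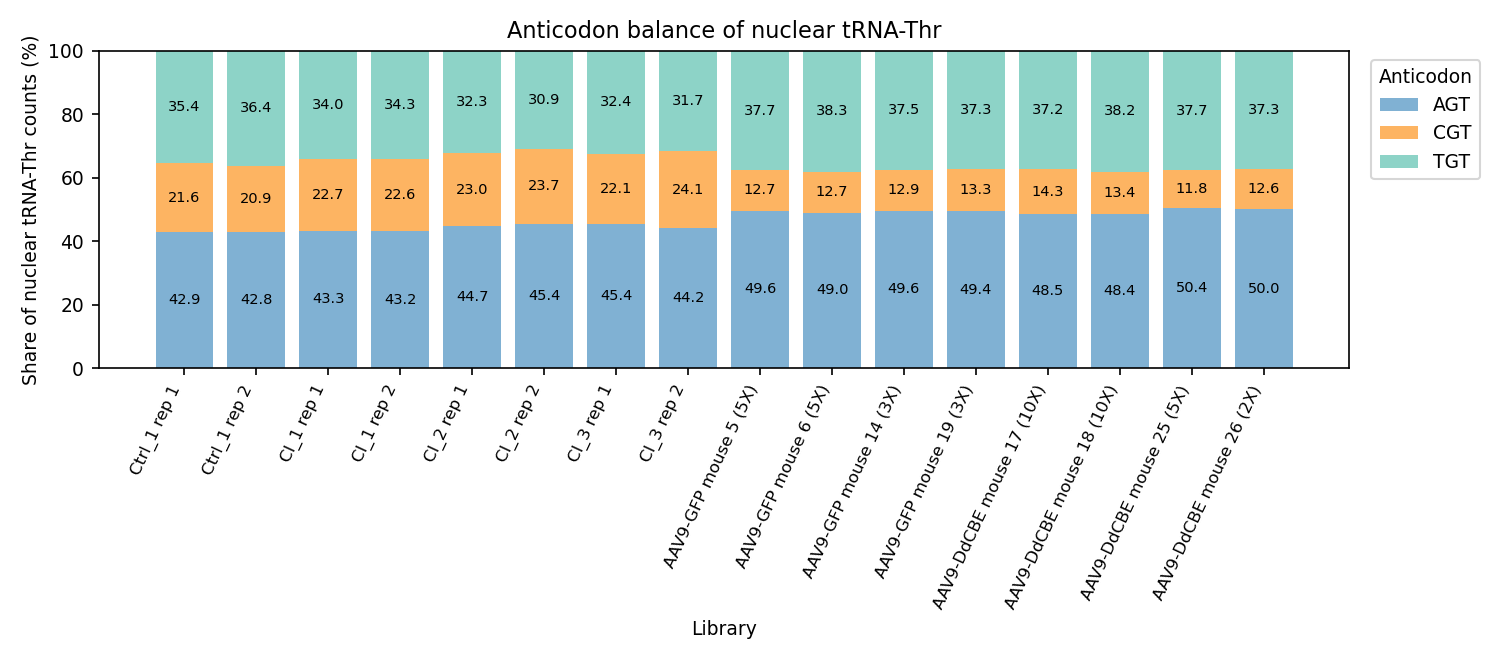
Share of nuclear tRNA-Thr counts in percent (y axis, from 0) taken by the AGT, CGT and TGT anticodons in each of the 16 libraries (x axis), with the share printed in each bar segment. CGT takes 20.9% to 24.1% in the MEF libraries and 11.8% to 14.3% in the hearts.

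Among the hearts the anticodon shares of the AAV9-DdCBE and AAV9-GFP groups lay close together. AGT took 49.3% ± 1.04 (SD, n = 4) against 49.4% ± 0.288 (n = 4), CGT 13.0% ± 1.05 against 12.9% ± 0.302, and TGT 37.6% ± 0.434 against 37.7% ± 0.435. The differences of -0.0574, 0.124 and -0.0669 points were smaller than the spread between mice (exact permutation test over 70 assignments, adjusted p = 0.886 for each). The highest and lowest CGT shares, 14.3% in mouse 17 and 11.8% in mouse 25, were both in the AAV9-DdCBE group. tRNA-Thr took 7.03% ± 0.747 of nuclear tRNA counts in AAV9-DdCBE hearts and 7.17% ± 0.987 in AAV9-GFP hearts (exact permutation test, p = 0.743).

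In the MEFs, TGT took 35.4% and 36.4% of tRNA-Thr counts in Ctrl_1 and between 30.9% and 34.3% in the 6 Cl libraries. CGT took 21.6% and 20.9% in Ctrl_1 and 22.1% to 24.1% in the Cl libraries, and AGT took 42.9% and 42.8% against 43.2% to 45.4%. The Cl libraries thus lay below Ctrl_1 for TGT and above it for CGT and AGT without overlap. The mean differences were -3.29 points for TGT, 1.77 for CGT and 1.52 for AGT. By the exact permutation test over its 28 assignments, p was 0.0357 for TGT and CGT and 0.0714 for AGT, or 0.0536, 0.0536 and 0.0714 after adjustment over the 3 anticodons, so none passed 0.05. With the line as the unit the test has 4 assignments and cannot go below 0.25, the value it gave for each anticodon. Since libraries of a line are passages, all MEF p-values across libraries measure the spread between passages, and Ctrl_1 is the only control line.

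Summed per anticodon and tested on counts, CGT rose in the average over the 3 Cl lines (log2 change 0.18, SE 0.05, edgeR adjusted p = 0.0123), where 42.9% of the 70 sums tested were called. The AGT sum (0.12, adjusted p = 0.0522) and the TGT sum (-0.07, adjusted p = 0.158) were not called. In Cl_2 both the AGT sum (0.21, adjusted p = 0.0197) and the CGT sum (0.27, adjusted p = 0.00742) rose, where 35.7% of sums were called. In Cl_1 and Cl_3, where 24.3% and 25.7% of sums were called, no tRNA-Thr sum was. The TGT sum of Cl_3 was at its margin (-0.14, adjusted p = 0.0607) and was called lower in 8 of 12 alternatives, among them DESeq2's size factors (-0.16, 0.0307), library totals (-0.18, 0.0202) and nuclear totals (-0.20, 0.0144). The CGT call in the mean of the lines was lost without Ctrl_1 replicate 1 (0.17, adjusted p = 0.0789), without Cl_1 replicate 1 (0.14, adjusted p = 0.0563), or with nuclear totals (0.14, adjusted p = 0.0597). The TGT sum in that mean was called lower with library totals (-0.10, adjusted p = 0.0433) and nuclear totals (-0.12, adjusted p = 0.0343). The AGT call in Cl_2 was lost without any one of 6 libraries, both of Ctrl_1, Cl_2 and Cl_3, at adjusted p of 0.054 to 0.175, and the CGT call in Cl_2 without Cl_2 replicate 2 (0.22, adjusted p = 0.0866).

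Within the CGT family the rarer isodecoders CGT-3 and CGT-4 were higher in Cl_2 and Cl_3, and CGT-1, the most abundant one, was lower in Cl_3. CGT-4 stood at 159.8 and 194 CPM in Ctrl_1, at 181 and 254 in Cl_1, at 504 and 583 in Cl_2, and at 491 and 589 in Cl_3. The 4 libraries of Cl_2 and Cl_3 all lay above the others, while Cl_1 overlapped Ctrl_1. CGT-4 rose in Cl_2 (log2 change 1.62, SE 0.21, edgeR adjusted p = 0.00121, 3.06-fold) and in Cl_3 (1.61, SE 0.21, adjusted p = 0.00108, 3.05-fold), against a value of 0.29 (adjusted p = 0.306) in Cl_1. CGT-3 stood at 436 and 471 CPM in Ctrl_1, 411 and 604 in Cl_1, 780.5 and 972 in Cl_2, and 1005 and 1269 in Cl_3. It rose by 0.95 (SE 0.22, adjusted p = 0.011) in Cl_2 and 1.33 (SE 0.22, adjusted p = 0.00254) in Cl_3, with a value of 0.16 (adjusted p = 0.609) in Cl_1.

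The abundant CGT isodecoders moved less and in opposite directions. CGT-1 stood at 7243 and 6612 CPM in Ctrl_1, 6733 and 6312 in Cl_1, 5914 and 6128 in Cl_2, and 4999.9 and 5352 in Cl_3. It fell in Cl_3 (log2 change -0.42, SE 0.07, adjusted p = 0.00367), with values of -0.09 (adjusted p = 0.402) in Cl_1 and -0.20 (adjusted p = 0.0597) in Cl_2. CGT-2 stood at 4543 and 4413 CPM in Ctrl_1, 5214 and 5145 in Cl_1, 5839 and 5974 in Cl_2, and 4713 and 4972 in Cl_3. All 6 Cl libraries lay above both Ctrl_1 libraries, and CGT-2 rose in Cl_1 (0.21, SE 0.06, adjusted p = 0.033) and Cl_2 (0.40, SE 0.06, adjusted p = 0.00223), but its value of 0.11 in Cl_3 was not called (adjusted p = 0.158). CGT-2 was called higher in Cl_3 with library totals (0.25, adjusted p = 0.0161), with nuclear totals (0.24, adjusted p = 0.0217) and by DESeq2 (0.13, adjusted p = 0.0354), and DESeq2 called CGT-1 lower in Cl_2 (-0.21, adjusted p = 0.00456).

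Among the AGT isodecoders, whose inosine form reads ACU and ACC, AGT-2 was lower in every Cl line. It stood at 5822 and 5983 CPM in Ctrl_1, 4908 and 4947 in Cl_1, 4781 and 4761 in Cl_2, and 4657 and 4312 in Cl_3. The groups did not overlap, and AGT-2 fell by 0.26 (SE 0.06, adjusted p = 0.0165), 0.31 (SE 0.06, adjusted p = 0.00788) and 0.40 (SE 0.06, adjusted p = 0.00254) on the log2 scale in Cl_1, Cl_2 and Cl_3. AGT-1/3 stood at 12900 and 12170 CPM in Ctrl_1, and at 13292 and 12802 in Cl_1, 14574 and 15312 in Cl_2, and 12653 and 12439 in Cl_3. It rose in Cl_2 (0.25, SE 0.06, adjusted p = 0.0119), with uncalled values of 0.06 and 0.00 in Cl_1 and Cl_3. AGT-4 was not called in any line; its log2 values were 0.02, -0.01 and -0.17, the last at adjusted p = 0.0517 by edgeR and called by DESeq2 (-0.16, adjusted p = 6.57e-04).

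The low AGT isodecoders varied between the Cl lines. AGT-6 stood at 314 and 266 CPM in Ctrl_1, 148 and 241 in Cl_1, 493 and 576 in Cl_2, and 565 and 839 in Cl_3. Cl_1 lay below Ctrl_1 and the other lines above it: AGT-6 rose in Cl_2 (0.88, SE 0.28, adjusted p = 0.0344) and Cl_3 (1.28, SE 0.28, adjusted p = 0.00768), with a value of -0.58 in Cl_1 that was not called (adjusted p = 0.139) but was with no filter on low counts (-0.58, adjusted p = 0.00966). AGT-5 stood at 47.4 and 47.7 CPM in Ctrl_1, 33.0 and 34.9 in Cl_1, 43.8 and 46.7 in Cl_2, and 70.7 and 102 in Cl_3. It rose in Cl_3 (0.86, SE 0.21, adjusted p = 0.0118) and was not called in Cl_1 (-0.49, adjusted p = 0.126) or Cl_2 (-0.08, adjusted p = 0.803). AGT-7, with 10 to 37 counts per MEF library, was not called in any line.

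For the TGT anticodon, the reader of ACA, TGT-3/2 was lower in Cl_2 and Cl_3. It stood at 16016 and 15894 CPM in Ctrl_1, 15221 and 14805 in Cl_1, 14310 and 13730 in Cl_2, and 12414 and 12114 in Cl_3. Every Cl library lay below Ctrl_1, and TGT-3/2 fell by 0.19 (SE 0.05, adjusted p = 0.0247) in Cl_2 and 0.38 (SE 0.05, adjusted p = 0.00146) in Cl_3 on the log2 scale, against a value of -0.09 (adjusted p = 0.232) in Cl_1. TGT-1 stood at 4253 and 4482 CPM in Ctrl_1, and the Cl libraries ranged from 3597 to 4128. It fell in Cl_1 (-0.22, SE 0.07, adjusted p = 0.0495), with uncalled values of -0.11 in Cl_2 and -0.13 in Cl_3.

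By line, 3 of 12 tRNA-Thr isodecoders were called in Cl_1 (1 higher, 2 lower), 7 in Cl_2 (5 higher, 2 lower) and 7 in Cl_3 (4 higher, 3 lower), where 33.8%, 46.3% and 50.7% of all 201 rows tested were called. By direction the background was 14.9% higher and 18.9% lower in Cl_1, 25.9% and 20.4% in Cl_2, and 26.4% and 24.4% in Cl_3. The counts of tRNA-Thr lie near this background, and the 3 comparisons share the Ctrl_1 libraries. No call in Cl_1 held through all 8 leave-one-out fits: the CGT-2 and TGT-1 calls were lost without any one of the 8 libraries, and the AGT-2 call without either library of Ctrl_1, Cl_1 or Cl_3. In Cl_2 only the CGT-2 and CGT-4 calls held throughout. There the AGT-6 call was lost without any one Ctrl_1 or Cl_2 library (adjusted p 0.0675 to 0.146). The CGT-3 call in Cl_2 was lost without Ctrl_1 replicate 1 or Cl_2 replicate 2 (0.06 and 0.0646), and the AGT-2 call without Ctrl_1 replicate 2 or Cl_2 replicate 1 (0.0559 and 0.0627). The AGT-1/3 call was lost without Ctrl_1 replicate 2, Cl_2 replicate 2 or either Cl_3 library (0.051 to 0.0765), and the TGT-3/2 call without any one library of Ctrl_1, Cl_2 or Cl_3 (0.0595 to 0.146), with library totals (-0.08, adjusted p = 0.171), with nuclear totals (-0.10, 0.114) or with no filter (-0.18, 0.109). In Cl_3 the calls of CGT-4, CGT-3, AGT-6, CGT-1, AGT-2 and TGT-3/2 held in each of the 14 alternatives run, while AGT-5 was lost without Ctrl_1 replicate 1 (0.84, adjusted p = 0.0596) or Cl_3 replicate 2 (0.58, adjusted p = 0.0625).

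In the mean of the 3 Cl lines against Ctrl_1, 6 of 12 isodecoders were called, 3 higher and 3 lower, where 48.3% of all rows were called (22.9% higher and 25.4% lower). CGT-4 (1.17, SE 0.18, edgeR adjusted p = 0.00211, 2.25-fold), CGT-3 (0.81, SE 0.18, adjusted p = 0.00861) and CGT-2 (0.24, SE 0.05, adjusted p = 0.00652) rose. AGT-2 (-0.32, SE 0.05, adjusted p = 0.00224), CGT-1 (-0.24, SE 0.06, adjusted p = 0.0145) and TGT-3/2 (-0.22, SE 0.04, adjusted p = 0.0046) fell. The uncalled values were 0.52 for AGT-6 (adjusted p = 0.099), -0.15 for TGT-1 (adjusted p = 0.0594), 0.10 for AGT-1/3 (adjusted p = 0.115), 0.10 for AGT-5, 0.11 for AGT-7 and -0.05 for AGT-4. DESeq2 called AGT-1/3 (0.11, adjusted p = 0.0101), AGT-6 (0.53, 0.0446) and TGT-1 (-0.16, 0.00883), and edgeR called AGT-6 with no filter (0.53, 0.00305) or without Cl_1 replicate 1 (0.62, 0.0309). AGT-1/3 was called higher with library totals (0.21, adjusted p = 0.00778) and nuclear totals (0.19, 0.0113), while CGT-1 was lost (-0.13, 0.097, and -0.15, 0.072). The calls then split into 4 higher and 2 lower with either total. Of all rows, 30.3% were higher and 17.4% lower with library totals, and 29.9% and 17.4% with nuclear totals. With these totals the median of all rows rose to 0.12 and 0.11 in Cl_2 and to 0.14 and 0.12 in Cl_3. Under TMM it was 0.02 and 0.00. In Cl_2 the split became 5 higher and 1 lower with either total. The background there was 26.9% and 12.4% with library totals and 26.9% and 13.4% with nuclear totals. In Cl_1 the split was 1 and 0 with library totals (background 17.4% and 16.4%) and 1 and 1 with nuclear totals (15.9% and 16.4%). All 6 Cl libraries lay above both Ctrl_1 libraries for 1 of 12 isodecoders (CGT-2) and below for 3 (AGT-2, TGT-1 and TGT-3/2), where 21.4% and 22.9% of rows did so. CGT-4 and AGT-2 held without each library in turn. CGT-1 and CGT-3 were lost without Ctrl_1 replicate 1 (adjusted p = 0.127 and 0.066), CGT-1 also without Cl_2 replicate 1 (0.0555) or Cl_3 replicate 1 (0.0515), and CGT-2 and TGT-3/2 without Ctrl_1 replicate 2 (0.0558 and 0.0539). With the libraries of a line summed, so that 3 lines stood against 1, 0 of 12 were called by edgeR (CGT-4 1.24, adjusted p = 0.262), where 4.98% of rows were called.

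Levels also differed between one Cl line and another. In an F test over the 3 Cl lines 8 of 12 isodecoders were called, where 24.4% of rows were called: CGT-4 (adjusted p = 0.00808), AGT-5 and AGT-6 (0.00824 each), TGT-3/2 (0.0172), CGT-3 (0.0199), CGT-2 (0.0317), AGT-1/3 and CGT-1 (0.0401 each). AGT-2, AGT-4, AGT-7 and TGT-1 were not called. Fewer were called when any one library was left out, which leaves 1 library in its line. Whether other rows lost calls to the same extent is not given here. Against Cl_1, Cl_3 had higher AGT-6 (1.86, SE 0.28, adjusted p = 0.00316), AGT-5 (1.35, adjusted p = 0.00364), CGT-4 (1.31, adjusted p = 0.00364) and CGT-3 (1.17, adjusted p = 0.00804), and lower CGT-1 (-0.33, adjusted p = 0.0176) and TGT-3/2 (-0.29, adjusted p = 0.00736), where 25.9% of rows were called. Against Cl_1, Cl_2 had higher AGT-6 (1.46, adjusted p = 0.0113), CGT-4 (1.32, adjusted p = 0.0062) and CGT-3 (0.79, adjusted p = 0.0488), where 16.9% were called. Between Cl_3 and Cl_2, 0 of 12 were called by edgeR, with 6 at an unadjusted p below 0.05 and 0.995% of rows called. The anticodon sums gave 0 calls of 3 among the Cl lines by edgeR, with 1 at an unadjusted p below 0.05 and 1.43% of sums called.

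**Figure D3:**
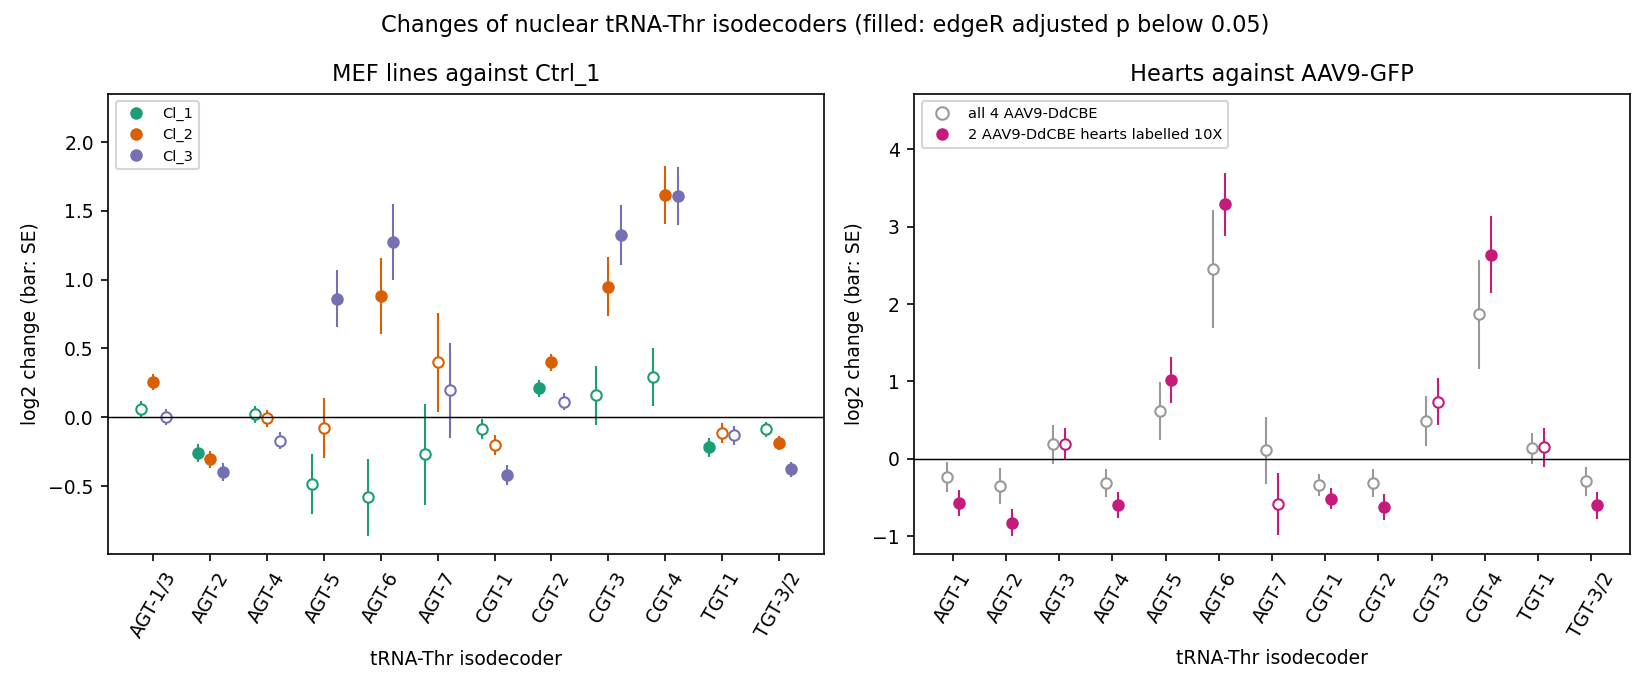
log2 change (y axis) with its SE as a bar for each nuclear tRNA-Thr isodecoder (x axis), by Cl line against Ctrl_1 on the left and against AAV9-GFP hearts on the right; filled points have an edgeR adjusted p below 0.05. CGT-4 lies at 1.62 in Cl_2 and 1.61 in Cl_3, and AGT-6 at 3.29 in the 2 hearts labelled 10X, whereas no point of all 4 AAV9-DdCBE hearts is filled.

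In the hearts, AAV9-DdCBE against AAV9-GFP gave 0 calls among 13 isodecoders by edgeR, where 0% of the 180 rows tested were called. At an unadjusted p below 0.05 there were 3 tRNA-Thr rows among 35 rows in all. The values furthest from 0 were those of AGT-6 (2.45, SE 0.76, adjusted p = 0.097), CGT-4 (1.87, SE 0.70, adjusted p = 0.142) and AGT-5 (0.61, adjusted p = 0.323). DESeq2 called AGT-6 (2.62, adjusted p = 0.00604) and CGT-4 (2.01, adjusted p = 0.0411) higher, among 17.2% of rows. Without mouse 26, edgeR called AGT-6 (2.96, adjusted p = 0.0206) and CGT-4 (2.34, adjusted p = 0.0425) among 17.1% of rows, and without mouse 25 it called AGT-6 (2.94, adjusted p = 0.0461) among 10.4%. The anticodon sums gave log2 values of -0.06 for AGT, -0.05 for CGT and -0.06 for TGT, each at adjusted p = 0.934, with 0% of sums called.

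The values by mouse show where the spread lay. AGT-6 had 35.5, 56.6, 112 and 46.3 CPM in AAV9-GFP mice 5, 6, 14 and 19, and 709.95, 499, 97.6 and 63.1 CPM in AAV9-DdCBE mice 17, 18, 25 and 26. CGT-4 had 11.4, 5.90, 27.1 and 6.43 CPM in the same AAV9-GFP mice, and 75.2, 75.1, 19.97 and 12.6 CPM in the AAV9-DdCBE mice, from 15 to 216 counts per heart. For both, the hearts labelled 10X (mice 17 and 18) lay above all others, and mice 25 and 26 lay within the AAV9-GFP range. AGT-5 had 215, 293, 484 and 307 CPM in the AAV9-GFP mice and 716, 598, 387 and 287 CPM in the AAV9-DdCBE mice, with the same split. CGT-3 had 232, 334, 546 and 363 CPM in the AAV9-GFP mice and 593, 636, 446 and 391 CPM in the AAV9-DdCBE mice. Among the AAV9-GFP hearts, mouse 14 was the highest for AGT-5, AGT-6, CGT-3 and CGT-4. CGT-1 was the one isodecoder for which all 4 AAV9-DdCBE hearts (1662 to 2282 CPM) lay below all 4 AAV9-GFP hearts (2393 to 2659 CPM), yet its log2 value of -0.34 (SE 0.14) was not called (adjusted p = 0.201). No isodecoder had all 4 AAV9-DdCBE hearts above all 4 AAV9-GFP hearts, and 2.22% of all 180 rows had no overlap in the lower and 5.56% in the higher direction.

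The AAV9-DdCBE hearts were then split by X label, a split first made with results of these data known. In the 2 hearts labelled 10X against the 4 AAV9-GFP hearts, 9 of 13 isodecoders were called, where 51.7% of rows were called (23.9% higher and 27.8% lower). No AAV9-GFP heart is labelled 10X, so treatment and X label cannot be told apart in this comparison. AGT-6 (3.29, SE 0.41, edgeR adjusted p = 2.54e-04, 9.75-fold), CGT-4 (2.64, SE 0.50, adjusted p = 0.00366, 6.23-fold) and AGT-5 (1.02, SE 0.30, adjusted p = 0.0232, 2.03-fold) rose. CGT-3 had a value of 0.74 that was not called (SE 0.31, adjusted p = 0.0687), though both 10X hearts lay above all 4 AAV9-GFP hearts; it was called in 7 of 13 alternatives: without mouse 14 (0.99, adjusted p = 0.0064), mouse 25 (0.92, 0.0445) or mouse 26 (0.91, 0.041), by DESeq2 (0.93, 0.00837), with no filter (0.96, 0.00953), and with library totals (0.84, 0.0411) or nuclear totals (1.15, 0.0436). The AGT-6 call held in each of the 13 alternatives run, at log2 changes of 3.01 to 3.71. The CGT-4 call was lost without mouse 17 (2.64, adjusted p = 0.0528), and the AGT-5 call without mouse 17 (0.88, adjusted p = 0.171) or mouse 18 (1.15, adjusted p = 0.0594). Mouse 17 was also the heart with 59.9% mitochondrial counts, whose part in these results was not tested. The 5X heart of mouse 25 and the 2X heart of mouse 26, with 1 heart each and assumed to vary like the other groups, gave 0 tRNA-Thr calls by edgeR and 0 at an unadjusted p below 0.05, where 0.556% and 0% of rows were called. Mouse 25 lay above both AAV9-GFP hearts that share its 5X label for every tested isodecoder except AGT-4 and CGT-1. Of the isodecoders where it did so, only AGT-2, AGT-3 and AGT-7 also lay above all 4 AAV9-GFP hearts. The rest, among them AGT-6, AGT-5, CGT-3, CGT-4 and TGT-1, lay within the range of those 4 hearts.

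The abundant isodecoders of the 10X hearts were lower after TMM scaling, but this depended on the scaling. TGT-3/2 had 13913, 15408, 15958 and 14198 CPM in the AAV9-GFP mice and 8504, 11131, 15602 and 13433 CPM in AAV9-DdCBE mice 17, 18, 25 and 26. AGT-2 had 6627, 7137, 7469 and 6719 CPM against 3306, 4592, 7597 and 6436 CPM. In both, mice 17 and 18 lay below the rest. AGT-2 (-0.82, SE 0.17, edgeR adjusted p = 0.00499), CGT-2 (-0.62, adjusted p = 0.015), TGT-3/2 (-0.60, adjusted p = 0.022), AGT-4 (-0.59, adjusted p = 0.0216), AGT-1 (-0.57, adjusted p = 0.0248) and CGT-1 (-0.51, adjusted p = 0.0171) fell under TMM, where the median of all rows was -0.23. With DESeq2's size factors in the same test the 6 values were -0.64 to -0.32 with 1 call, with library totals -0.71 to -0.41 with 1 call, and with totals of nuclear tRNA counts -0.41 to -0.09 with 0 calls; the median of all rows was then -0.04, -0.13 and 0.21. The split of calls was 3 higher and 6 lower under TMM, 3 and 1 with DESeq2's size factors (background 27.2% and 8.33%), 4 and 1 with library totals (26.7% and 5%), and 5 and 0 with nuclear totals (33.3% and 3.33%). Without mouse 6 no fall was called, without mouse 5, 17, 25 or 26 only that of AGT-2 was, and without mouse 19 those of AGT-2, AGT-4 and CGT-2 were.

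TGT-1 (0.15, adjusted p = 0.629; 0.38, adjusted p = 0.0405 without mouse 14), AGT-3 (0.20, adjusted p = 0.42; 0.61, adjusted p = 0.0496 with nuclear totals) and AGT-7 (-0.58, adjusted p = 0.244) were not called in the 10X hearts. TGT-1 had 1231 to 2392 CPM in the AAV9-GFP hearts and 1708 to 1967 CPM in the AAV9-DdCBE hearts, which lay within that range. AGT-3 took 2.53% to 2.72% of the summed AGT-1 and AGT-3 counts in the 4 AAV9-GFP hearts, 4.36% and 4.44% in the hearts labelled 10X, 2.70% in mouse 25 and 3.18% in mouse 26. The tRNA-Thr sums of the 10X hearts gave log2 values of -0.18 for AGT, -0.05 for CGT and -0.15 for TGT, with 0 called by edgeR, 0 at an unadjusted p below 0.05 and 0% of all sums called.

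Shares within an anticodon do not depend on the scaling between libraries, and they show the same minor isodecoders. AGT-6 made up 0.178% to 0.462% of AGT counts in the AAV9-GFP hearts, 5.34% and 3.0% in the 10X hearts, and 0.418% and 0.310% in mice 25 and 26. CGT-4 made up 0.106% to 0.428% of CGT counts in the AAV9-GFP hearts, 1.92% and 1.64% in the 10X hearts, and 0.365% and 0.246% in mice 25 and 26. CGT-3 made up 4.55% to 8.62% of CGT counts in the AAV9-GFP hearts and 15.1% and 13.9% in the 10X hearts. By share, TGT-1 was also above the AAV9-GFP range in the 10X hearts, though its level in CPM was not. It made up 8.13% to 13.0% of TGT counts in the AAV9-GFP hearts, and 16.7% and 15.0% in the 10X hearts. In mice 25 and 26 it was at 10.6% and 11.6%, and TGT-3/2 held the rest of the TGT counts. In the MEFs CGT-3 made up 3.52% and 4.03% of CGT counts in Ctrl_1, 3.28% and 4.90% in Cl_1, 5.99% and 7.12% in Cl_2, and 8.96% and 10.4% in Cl_3. CGT-4 made up 1.29% and 1.66% of CGT counts in Ctrl_1, 1.44% and 2.07% in Cl_1, 3.87% and 4.27% in Cl_2, and 4.38% and 4.84% in Cl_3. AGT-5 was lower in every MEF library than in any heart, with 0.138% to 0.456% of AGT counts against 1.08% to 5.39%.

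**Figure D4:**
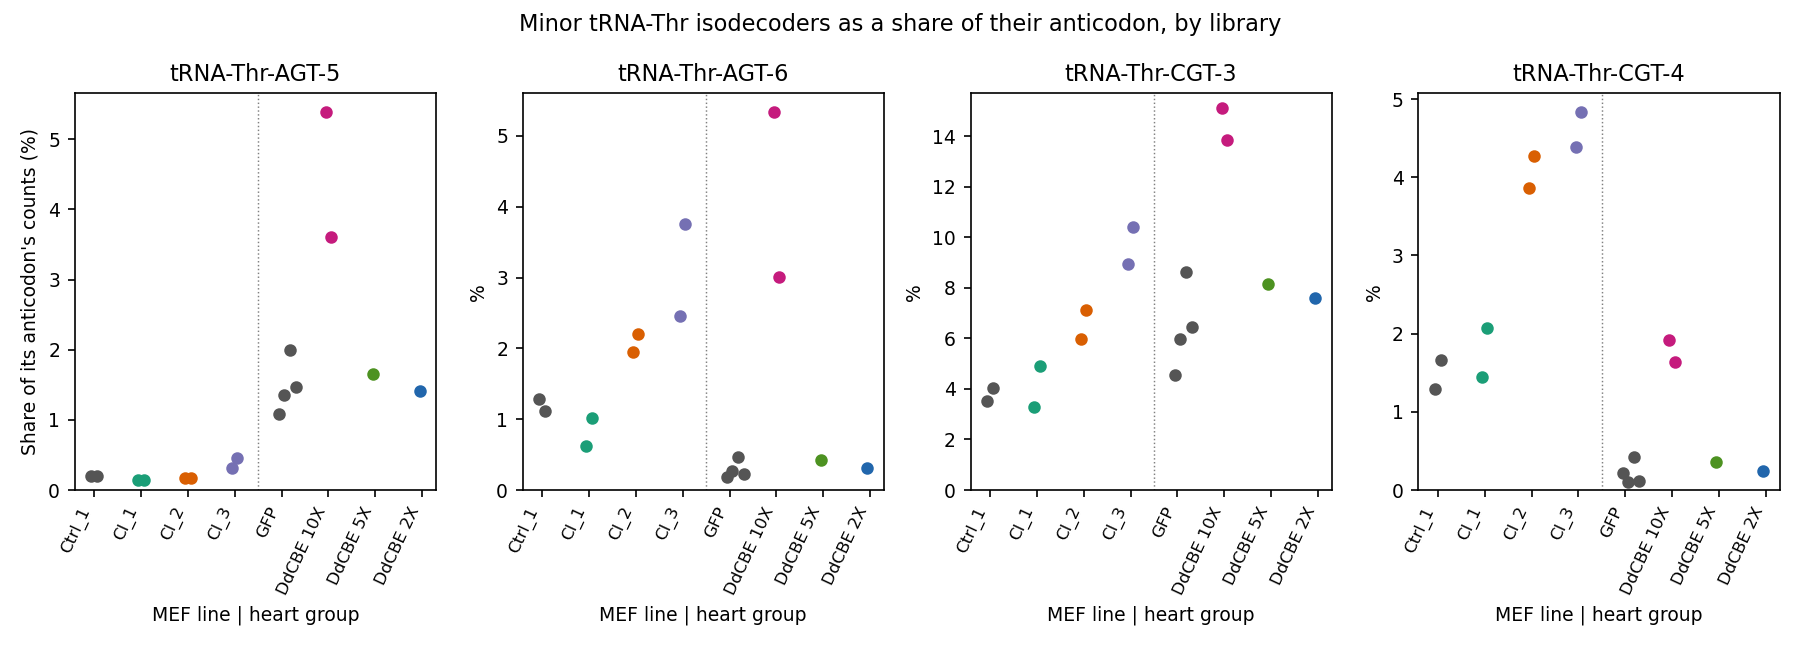
Share in percent of its own anticodon's counts (y axis, from 0, a separate scale per panel) taken by AGT-5, AGT-6, CGT-3 and CGT-4, 1 point per library, by MEF line left of the dotted line and by heart group right of it (x axis). The hearts labelled 10X lie at 3.0% and 5.34% for AGT-6, against 0.178% to 0.462% in the AAV9-GFP hearts, and CGT-4 is at 3.87% to 4.84% in Cl_2 and Cl_3, against 1.29% to 2.07% in Ctrl_1 and Cl_1.

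Beside other tRNA lists, the median log2 value of tRNA-Thr in the mean of the Cl lines was 0.10 over 12 rows, against 0.06 over 163 other nuclear rows (43 higher, 35 lower) and 0.00 over all 201 rows. Nuclear tRNAs outside tRNA-Thr whose anticodon also starts with A had 4 of 24 rows higher and 7 lower, with a median of 0.05. In the 10X hearts the median was -0.51 over 13 tRNA-Thr rows, -0.31 over 145 other nuclear rows (38 higher, 44 lower), and -0.19 over 23 rows with an anticodon starting with A (9 higher, 6 lower). The mitochondrial tRNA-Thr, which is encoded in mitochondrial DNA and serves the mitochondrial ribosome, was lower across the Cl lines and fell in their mean (-0.76, SE 0.14, edgeR adjusted p = 0.00406), from 873 CPM ± 45.5 (SD, n = 2) in Ctrl_1 to 540.2 ± 142, 579 ± 41.3 and 433 ± 12.5 in Cl_1, Cl_2 and Cl_3. The whole mitochondrial share of counts was also lower in every Cl library than in Ctrl_1, and whether mitochondrial tRNA-Thr moved apart from it was not tested. In the hearts mitochondrial tRNA-Thr was at 16866 CPM ± 2174 (n = 4) with AAV9-GFP and 15880 ± 4633 (n = 4) with AAV9-DdCBE, and was not called (-0.09, edgeR adjusted p = 0.766).

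The isodecoder with the highest mean level in both tables, TGT-3/2, was compared with the nuclear rows outside tRNA-Thr by Pearson's r of log2 CPM over the 8 libraries of a table. In the MEFs the closest were tRNA-Ala-CGC-2 (0.92), tRNA-Ala-TGC-2 (0.92) and tRNA-Gln-TTG-3 (0.90). In the hearts they were tRNA-Ile-AAT-1 (0.99), tRNA-Ala-TGC-4 (0.99) and tRNA-Gln-CTG-2 (0.98). These points share their libraries, depth and scaling, and the values only describe likeness.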

How the data were processed

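The authors deposited whole-number counts per tRNA row, without normalization, in one table for MEFs and another for hearts. Per the labels' protocols, TRIZOL-extracted total RNA (mild acid) was oxidised and beta-eliminated before mim-tRNAseq library preparation and Illumina sequencing. Cutadapt 3.5 and build mm39 come from the submitters' processing notes; the sources used here do not name the aligner or counter or say how shared reads were treated. No tRNA sequence was used here.

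Each table was tested apart in R 4.3.3 with edgeR 4.0.16 (TMM; filterByExpr by group, minimum count 10, minimum total 15; glmQLFit, glmQLFTest), with 1 factor for line or treatment and Benjamini-Hochberg adjustment over all 201 or 180 rows at 0.05; the SE is the log2 change over the square root of F. The hearts by X label took a factor with 4 levels. DESeq2 1.42.0, other scalings, no filter, sums per anticodon and leaving out each library were alternatives. Exact permutation tests were two-sided. Scripts were tested on simulated data. All 16 replicate pairs differed beyond sampling noise (chi-square over degrees of freedom 93.9 to 1781). Every tRNA-Thr row that passed the filter was named; members and lists were chosen with earlier results of these data known.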

Additional observations from a re-analysis of the deposited data

Results flagged for a closer look

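In edgeR's F test over the 3 Cl lines, 8 of 12 isodecoders were called, where 24.4% of all rows were called. The test compares the Cl lines with one another and not with Ctrl_1. Fewer than 8 were called when any one library was left out, which leaves 1 library in its line. The share of all rows called in those fits is not given here, so the fall cannot be called particular to tRNA-Thr. The adjusted p was 0.00808 for CGT-4, 0.00824 for AGT-5, 0.00824 for AGT-6, 0.0172 for TGT-3/2, 0.0199 for CGT-3, 0.0317 for CGT-2, 0.0401 for AGT-1/3 and 0.0401 for CGT-1. In AGT-6 the Cl_1 libraries lay below Ctrl_1 and those of Cl_2 and Cl_3 above it. No heart stood apart from its group among the 34 groups of values checked for a single distant heart, where chance alone would mark about 5% of groups. This check can miss hearts that move together, as mice 17 and 18 did for AGT-6. A MEF line, with 2 libraries, cannot be checked in this way.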

How the results depend on the processing

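Of 1245 alternatives over single isodecoders and anticodon sums, 1036 kept direction and side of the threshold, 129 lost a call, 45 gained one and 35 changed sign, 0 of these from a called value. Only a value called in the main fit can lose a call, so 129 set against all 1245 understates how often calls were lost. Deviations of same-numbered MEF libraries correlated weakly and always positively, at 0.0698 to 0.248 over 6 pairs of lines. Whether such libraries share more than a number was not tested. With a replicate block, TGT-1 in the mean of the Cl lines (-0.15, adjusted p = 0.0477), its AGT sum (0.12, 0.0426) and the TGT sum of Cl_3 (-0.14, 0.0461) gained a call, and no other tRNA-Thr call changed. Counts of isodecoders called moved as follows. With DESeq2's size factors, 1 was lower in Cl_1 and 1 in the 10X hearts, where 18.9% and 8.33% of rows were lower. With library totals, 0 were lower in Cl_1, 1 in Cl_2 and 1 in the 10X hearts, where 16.4%, 12.4% and 5% of rows were lower. With nuclear totals, 1 was lower in Cl_1, 1 in Cl_2 and 0 in the 10X hearts, where 16.4%, 13.4% and 3.33% of rows were lower. In the 10X hearts 5 were then higher, where 33.3% of rows were higher. With no filter, AGT-6 was called lower in Cl_1, while AGT-2, TGT-1 and CGT-2 lost their calls there. TGT-3/2 lost its call in Cl_2. In the 10X hearts AGT-1, AGT-4, CGT-1, CGT-2 and TGT-3/2 lost theirs, while CGT-3 gained one. AGT-2 stayed called lower in Cl_2 and in the 10X hearts. Summed per anticodon, which leaves 3 rows to call, 1 was higher and 0 lower in the Cl mean, 2 and 0 in Cl_2, and 0 and 0 in Cl_1, Cl_3 and the 10X hearts, with 0 called among the Cl lines. With lines summed, 0 were higher and 0 lower, where 2.49% of rows were called in each direction. DESeq2 called 5 higher and 4 lower in the Cl mean, where 27.4% and 28.9% of rows were so called. In the AAV9-DdCBE hearts it called 2 higher, where 16.7% of rows were higher. With 5X hearts only, 1 heart stood against 2, so that fit gives no evidence of a difference. The leave-one-out counts that follow come without the share of all rows called in each fit. They cannot show whether tRNA-Thr moved more than other rows. Leaving out each library in turn gave 2 to 4 higher and 2 to 3 lower in the Cl mean, 0 higher and 0 to 1 lower in Cl_1, 2 to 5 and 0 to 2 in Cl_2, 3 to 4 and 3 in Cl_3, 3 to 6 called among the Cl lines, 0 to 2 higher in AAV9-DdCBE hearts, and 1 to 5 higher and 0 to 6 lower in the 10X hearts.

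Uncalled log2 values that changed sign were these. With 5X hearts only, AGT-1 was at 0.20, AGT-2 at 0.13, AGT-4 at 0.040, CGT-2 at 0.092 and TGT-3/2 at 0.082. With library totals, AGT-4 was at 0.049 in the Cl mean and 0.10 in Cl_2, AGT-5 at 0.027 in Cl_2 and TGT-1 at 0.0064 in Cl_3. With nuclear totals, AGT-4 was at 0.034 in the Cl mean and 0.081 in Cl_2, AGT-5 at 0.012 in Cl_2 and the CGT sum of the 10X hearts at 0.0060. Leaving out each library in turn gave AGT-7 -0.093 to 0.32 in the Cl mean, -0.85 to 0.12 in Cl_1 and -0.061 to 0.34 in AAV9-DdCBE hearts. In Cl_1 it gave CGT-1 -0.17 to 0.0021 and CGT-3 -0.098 to 0.43, in Cl_2 AGT-4 -0.034 to 0.024 and the TGT sum -0.097 to 0.0047, and in Cl_3 AGT-1/3 -0.022 to 0.031. In AAV9-DdCBE hearts the AGT, CGT and TGT sums lay at -0.14 to 0.030, -0.14 to 0.034 and -0.14 to 0.022. In the 10X hearts AGT-3 lay at -0.012 to 0.39 and the CGT sum at -0.20 to 0.031. The AAV9-DdCBE minus AAV9-GFP differences in share lay at -0.421 to 0.241 points for AGT, -0.300 to 0.523 for CGT, -0.256 to 0.136 for TGT and -0.496 to 0.330 for tRNA-Thr of nuclear counts. The causes were not tested.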
